A study of Mus musculus with 6 samples.

Results

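The genes described here are 34 immediate early genes and genes of the negative feedback on ERK, the terminal kinase of the RAS-RAF-MEK cascade. They were chosen by name, as the rows of the deposited gene count table whose Ensembl identifiers carry the listed symbols in GENCODE release M21. All 34 were found among the table's 55401 gene rows, and the one listed as Cyr61 stands there as Ccn1. The table covers the cerebral cortex of C57BL/6 mouse embryos at embryonic day 18, with 3 libraries from Csmd3-/- embryos (knockout) and 3 from wild-type embryos, all obtained from matings of heterozygous parents. The alleles are known only by these genotype names, since the sources used here do not give the part of Csmd3 that was removed. Nor do they say whether a library stands for a single embryo or a pool, so the p-values below measure the spread between these libraries.

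Immediate early genes are transcribed within minutes of a stimulus without new protein synthesis, mostly through factors such as SRF and CREB that already sit at their promoters. In neurons, calcium entry through synaptic receptors and channels switches on a group that includes Arc, Npas4, Egr3, Egr4 and Fosb, and these genes are used as a record of recent activity. Growth factors such as FGF act through ERK and induce a partly separate group, in which DUSP phosphatases and Sprouty proteins damp the pathway and the ETS factors Etv4 and Etv5 carry its output. Many of the remaining genes, among them Klf2, Klf4, Ccn1, Atf3 and Ier3, also respond to flow, stress or cytokines in cells of vessels and of the immune system.

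Deposited totals ran from 54244288 to 68269607 counts in the knockout libraries and from 57531791 to 60716370 in the wild-type libraries. Low values crowded at 4 (1233 to 1347 genes per library, against 430 to 502 at 3 and 252 to 318 at 5), so a single sequenced fragment seems to have added about 4 to a count, and the precision is that of the count divided by 4. Csmd3 itself was at 9.98 ± 0.294 CPM in knockout (a count relative to its library's total, scaled by TMM) and 14.98 ± 1.72 CPM in wild type (SD, n = 3 each; log2 fold change -0.59, SE 0.13, adjusted p = 0.0233), so its transcript was lower but present. Markers of cortical projection neurons were abundant in all libraries: the 10 listed summed to 3342 to 3865 CPM in knockout and 3381 to 3624 CPM in wild type, and the most abundant, Neurod2, a neuronal bHLH factor, did not pass the test (log2 fold change 0.02, SE 0.06, adjusted p = 0.902).

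Of the 34 genes, 4 were higher in the knockout cortex: the ERK phosphatase gene Dusp6, the zinc finger factor gene Egr1, the stress-induced factor gene Atf3 and the survival gene Ier3. None was lower. The neuronal activity genes and the other ERK feedback genes did not pass the test. The members Egr2 and Egr4 were too low to be tested, and among the 32 tested the share called higher was 12.5%, against 5.21% of all 19844 genes tested, while 2.53% of all genes were called lower. Among the called genes, Atf3 reached the minimum of the low count filter in 3 knockout but only 2 wild-type libraries. Its wild-type libraries alone would not have passed, so the share is given as a description. At an unadjusted p under 0.05, 1 member was lower, and DESeq2 called 0 lower and 9 higher. In 9 members (28.1%) all 3 knockout libraries lay above all wild-type libraries, against 15.6% of all genes, and in 4 members (12.5%) all lay below, against 13.5%. The median log2 fold change over the 32 was 0.07, with 22 members above 0 and 10 below. Over all genes tested it was 0.00199.

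The calls changed with the libraries used. Leaving out knockout library 1 or 2 or wild-type library 1 left 0 members past the threshold, leaving out knockout library 3 left only Klf4, and leaving out wild-type library 2 left Dusp6 and Ier3. Without wild-type library 3 the count was 5, namely Atf3, Ccn1, Dusp6, Gadd45b and Jun. Fewer libraries can raise an adjusted p by themselves, so a lost call does not show that the library left out carried the difference. Over these fits the log2 fold change was 0.37 to 0.43 for Dusp6 and 0.52 to 0.73 for Egr1. It was 2.16 to 2.76 for Atf3 and 0.92 to 1.38 for Ier3. Choroid plexus markers summed to 63.9 and 516 CPM in knockout libraries 2 and 3, against 33.3 CPM in knockout library 1. Most of that difference was the marker Ttr, at 35.7 and 452 CPM in libraries 2 and 3 and 1.91 CPM in library 1. With libraries 2 and 3 both left out, the log2 fold changes of the 4 called genes were 0.35 for Dusp6, 0.45 for Egr1, 2.42 for Atf3 and 0.91 for Ier3. That fit holds a single knockout library, so its spread comes from the wild-type libraries alone and its calls are not read here.

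**Figure D1:**
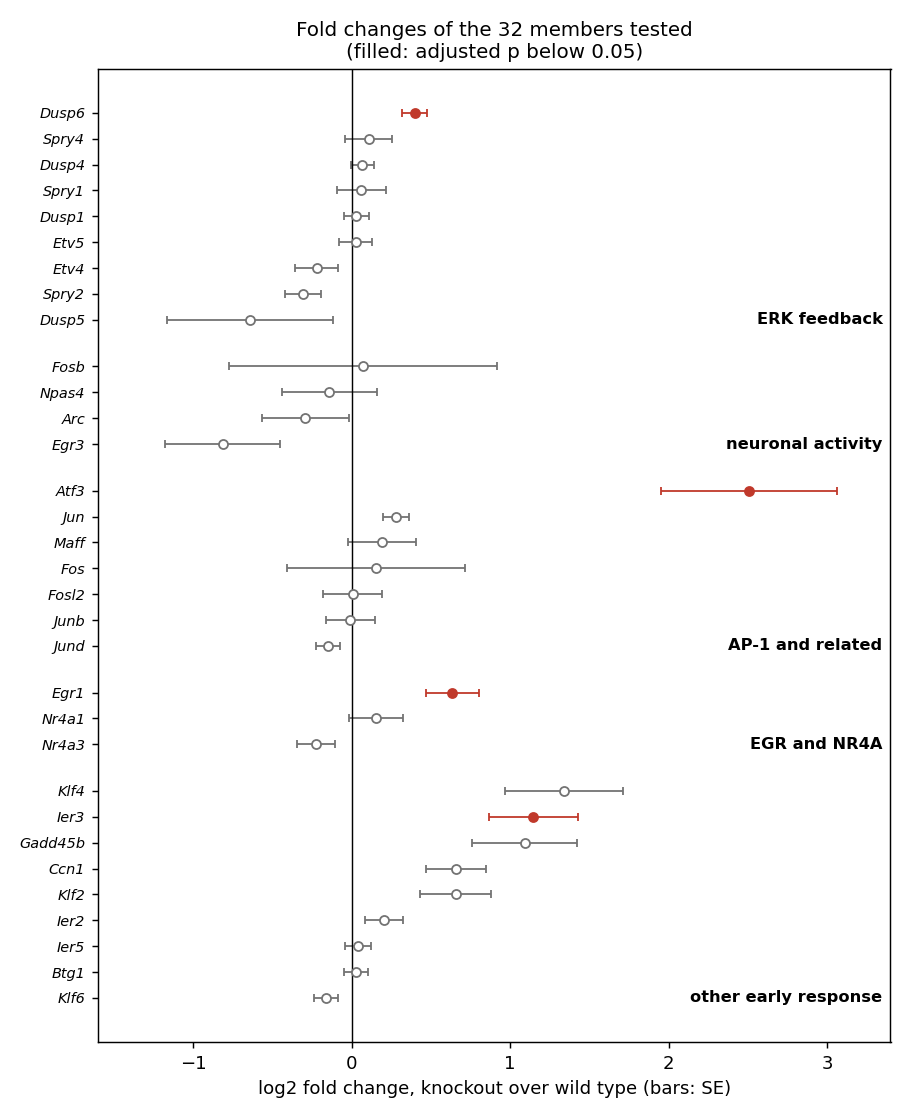
Log2 fold change (knockout over wild type, horizontal axis) of the 32 members tested, grouped by role, with bars for the SE. Filled red points mark the 4 genes past the adjusted p threshold of 0.05, from Dusp6 at 0.40 to Atf3 at 2.51, and the remaining members lie between -0.81 and 1.34.

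Promoters of 5 genes are shown because they set 3 of the called genes (Dusp6, Atf3 and Ier3) beside Fos and Npas4, which were not called. Each runs from 250 bases before to 50 after the annotated start (RefSeq, GRCm38.p6). For Atf3 and Npas4 this whole window lies inside the GENCODE gene, whose outer start is at 191218039 for Atf3 and 4990316 for Npas4. Capitals mark TGACG, the core of the cAMP response element bound by CREB and ATF proteins, on either strand (CGTCA on the other).
Dusp6 (chr10:99262981-99263280, plus strand): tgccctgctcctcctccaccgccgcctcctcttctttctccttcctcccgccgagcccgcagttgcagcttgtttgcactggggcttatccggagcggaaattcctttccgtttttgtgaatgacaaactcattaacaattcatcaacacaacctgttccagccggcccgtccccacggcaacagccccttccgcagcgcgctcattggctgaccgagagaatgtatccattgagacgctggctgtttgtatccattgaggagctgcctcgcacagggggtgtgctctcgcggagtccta
Atf3 (chr1:191183284-191183583, minus strand): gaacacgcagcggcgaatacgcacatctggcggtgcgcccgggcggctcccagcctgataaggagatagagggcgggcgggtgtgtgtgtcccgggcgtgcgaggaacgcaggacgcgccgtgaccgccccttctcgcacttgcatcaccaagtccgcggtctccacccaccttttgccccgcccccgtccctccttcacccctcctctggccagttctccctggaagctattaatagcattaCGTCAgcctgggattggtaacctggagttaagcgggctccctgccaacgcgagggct
Ier3 (chr17:35821463-35821762, plus strand): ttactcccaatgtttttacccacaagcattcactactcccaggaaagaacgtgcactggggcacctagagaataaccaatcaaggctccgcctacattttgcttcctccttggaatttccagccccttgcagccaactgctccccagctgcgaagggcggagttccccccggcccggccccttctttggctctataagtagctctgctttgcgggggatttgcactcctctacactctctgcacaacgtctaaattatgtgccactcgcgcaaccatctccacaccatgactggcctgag
Fos (chr12:85473640-85473939, plus strand): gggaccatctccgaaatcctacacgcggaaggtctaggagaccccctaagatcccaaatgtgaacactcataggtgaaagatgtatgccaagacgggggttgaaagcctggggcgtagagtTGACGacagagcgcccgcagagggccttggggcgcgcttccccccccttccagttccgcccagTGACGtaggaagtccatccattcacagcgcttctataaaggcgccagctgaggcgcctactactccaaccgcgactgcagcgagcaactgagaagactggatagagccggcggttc
Npas4 (chr19:4989922-4990221, minus strand): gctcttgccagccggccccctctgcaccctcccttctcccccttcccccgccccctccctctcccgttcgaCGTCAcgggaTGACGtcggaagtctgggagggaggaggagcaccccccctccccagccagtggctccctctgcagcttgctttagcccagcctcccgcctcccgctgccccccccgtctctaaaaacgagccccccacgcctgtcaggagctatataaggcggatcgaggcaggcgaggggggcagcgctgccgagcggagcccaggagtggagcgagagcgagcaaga
Atf3 held 1 such core, 7 to 3 bases before the start, and Fos and Npas4 held 2 each, while in Dusp6 and Ier3 these letters did not occur in this window. RefSeq windows were found for 27 of the 34 members, and 16 of those (59.3%) held the core, against 23.0% of the 27025 genes in the table (a gene with several starts counts once if any window matches). Both strands were searched for every motif. The full element TGACGTCA was in 7.41% of members and 2.03% of all genes, the CArG box bound by SRF in 7.41% and 1.81%, the ETS letters CCGGAA in 14.8% and 16.7%, and the AP-1 letters TGANTCA in 0 members and 8.97% of all genes. The core lies inside the full element. A match describes letters and not a bound site. Of the 16 members with the core, Atf3 was the only called gene.

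Among the 9 ERK feedback genes, 1 rose (11.1%, against 5.21% of all genes tested), and a single call among so few genes does not set the group apart from that background. Dusp6 (ENSMUSG00000019960.8, chr10:99263231-99267489, mm10, plus strand) encodes the cytoplasmic phosphatase that acts on ERK itself and is a standard readout of FGF signalling. Its level was 43.3, 46.2 and 45.4 CPM in knockout libraries 1 to 3, against 34.4, 35.3 and 32.7 CPM in wild-type libraries 1 to 3. The groups were apart by more than the spread within either, and the rise was 1.32-fold (log2 fold change 0.40, SE 0.08, adjusted p = 0.018). The call was lost without knockout library 1, 2 or 3 (adjusted p = 0.0532, 0.0768 and 0.0791) or wild-type library 1 (0.061). With any single library left out, the log2 fold change stayed between 0.37 and 0.43. The call was also lost with the replicate number as a block (adjusted p = 0.0533).

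The remaining DUSP genes did not pass. Dusp4, a nuclear phosphatase induced by ERK and the most abundant of the 9 also per length, had 137, 151 and 133 CPM in knockout and 136, 126 and 140 CPM in wild type (log2 fold change 0.07, SE 0.08). Dusp1, which acts mainly on the stress kinases JNK and p38, had 37.2, 39.7 and 38.2 CPM in knockout and 37.6, 36.6 and 38.5 CPM in wild type (0.03, SE 0.08). For Dusp1 all wild-type values but the lowest lay inside the knockout range, and for Dusp4 the groups overlapped, with knockout library 2 above and wild-type library 2 below all libraries of the other group. Dusp5, a nuclear phosphatase of ERK, was scarce, at 0.524 to 0.774 CPM in knockout and 0.332 to 1.40 CPM in wild type (-0.64, SE 0.52, adjusted p = 0.542), and it shares 547 exon bases with the antisense gene AC137853.2. No source used here states whether counting was by strand, and reads of such a pair then cannot be told apart.

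Sprouty proteins are inhibitors of receptor tyrosine kinase signalling upstream of ERK. Spry2 lay lower in every knockout library, at 23.7, 23.2 and 19.5 CPM, than in any wild-type library, at 26.2, 29.7 and 26.1 CPM, yet the difference did not pass (log2 fold change -0.30, SE 0.11, adjusted p = 0.148). It was the 1 member with a negative fold change and an unadjusted p under 0.05. Spry1 averaged 13.2 ± 2.13 CPM in knockout and 12.6 ± 1.51 CPM in wild type (0.06, SE 0.16), and Spry4 averaged 7.28 ± 0.714 CPM in knockout and 6.75 ± 0.50 CPM in wild type (0.11, SE 0.15; SD, n = 3 each). Spry1 shares 710 exon bases with the opposite-strand gene Gm42922. In sign, then, Spry2 stood opposite to Dusp6 within the same feedback group.

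Etv4 and Etv5, ETS factors of the PEA3 family that FGF induces, gave no call. Etv5 was at 79.9, 66.3 and 65.7 CPM in knockout and 66.1, 65.1 and 76.9 CPM in wild type (log2 fold change 0.03, SE 0.10, adjusted p = 0.918), with 1 high library in each group. Etv4 was at 10.04, 8.36 and 8.59 CPM in knockout and 10.7, 11.2 and 9.58 CPM in wild type (-0.22, SE 0.14, adjusted p = 0.397). Across the 9 feedback genes the median log2 fold change was 0.03, with 6 above 0 and 3 below.

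None of the neuronal activity genes passed the test (0 of 4 by edgeR, 0 at an unadjusted p under 0.05 and 0 by DESeq2), and all were near the lower end of detection. Arc, which encodes a cytoskeletal protein that drives AMPA receptor uptake, had 1.21, 1.501 and 1.79 CPM in knockout and 1.83, 2.17 and 1.501 CPM in wild type (log2 fold change -0.29, SE 0.27, adjusted p = 0.606). Npas4, a bHLH-PAS factor switched on by calcium, had 1.43, 0.917 and 1.05 CPM in knockout and 1.22, 1.28 and 1.24 CPM in wild type (-0.14, SE 0.30, adjusted p = 0.841). The groups overlapped for both genes.

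Egr3, an EGR factor induced by synaptic activity, had the most negative value of all members, and a single wild-type library set its size. Its level was 1.53, 1.34 and 1.64 CPM in knockout and 4.32, 1.95 and 1.66 CPM in wild type (log2 fold change -0.81, SE 0.36, adjusted p = 0.228). All knockout libraries were below all wild-type libraries, but knockout library 3 and wild-type library 3 nearly touched, and without wild-type library 1 the log2 fold change was -0.27 (adjusted p = 0.67). Arc and Npas4 did not share that high value in wild-type library 1. Fosb, a FOS family member, had 24, 15 and 4 deposited counts in knockout and 17, 16 and 4 in wild type. Egr4 had 0 counts in every knockout library, against 8, 0 and 15 in wild type, and was not tested. A count of 0 over the 3 knockout libraries allows up to 3 fragments, or 12 deposited counts, so no fold is given.

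Set side by side, the median log2 fold change was -0.22 over the 4 tested activity genes and 0.03 over the 9 feedback genes, and 1 gene in all, Dusp6, passed in either group. Measured as each library's median deviation from the wild-type mean on the log2 CPM scale, the activity genes stood at -0.19, -0.35 and -0.39 in knockout libraries 1 to 3 and at 0.28, 0.14 and -0.40 in wild-type libraries 1 to 3. Wild-type library 3 was as low as the lowest knockout library, so the groups overlapped. For the feedback genes the same measure was -0.013, 0.036 and -0.007 in knockout and 0.022, 0.05 and -0.065 in wild type. The depth behind the groups differed: the 5 activity genes summed to 3.998 to 4.55 CPM in knockout and 4.73 to 7.79 CPM in wild type, and the 9 feedback genes to 333 to 357 CPM in knockout and 326 to 341 CPM in wild type. The SEs of the log2 fold changes were 0.27 to 0.84 for the activity genes and 0.08 for Dusp6. Over the 9 feedback genes they ran from 0.08 (Dusp4) to 0.52 (Dusp5), so the ranges overlapped. The parts of depth and of spread between libraries in these errors were not tested.

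**Figure D2:**
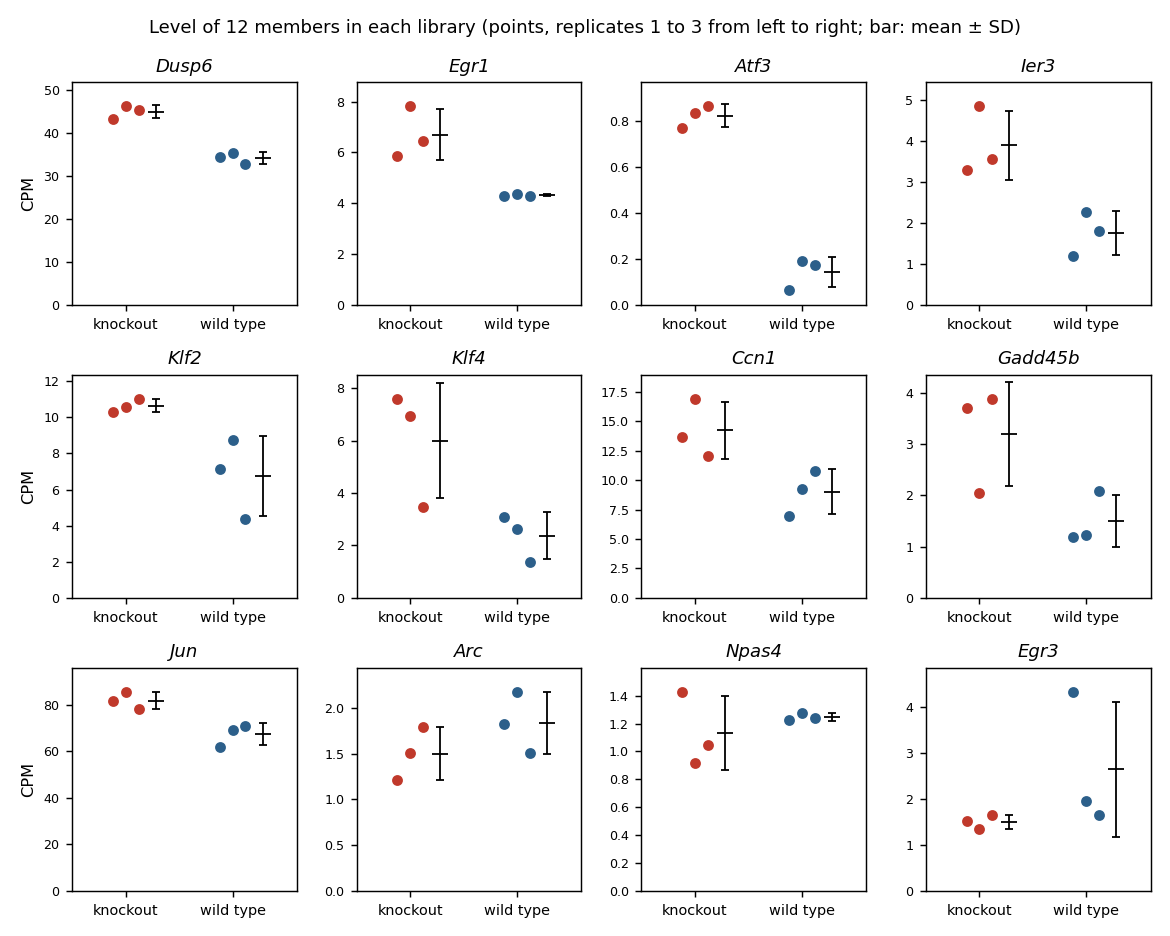
CPM of 12 members in each library (vertical axis, starting at 0), with knockout in red left of wild type in blue, and the mean ± SD of 3 libraries beside each group. The top row holds the 4 genes past the threshold, whose groups do not overlap; the middle row and Jun hold the 5 genes that DESeq2 called and the reported edgeR fit did not, of which Gadd45b overlaps (2.04 CPM in knockout library 2, 2.09 CPM in wild-type library 3); Arc, Npas4 and Egr3 stay at or below 4.32 CPM.

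Of the 7 AP-1 and related leucine zipper genes, 1 rose, again a single call beside the background of 5.21%. Atf3 (ENSMUSG00000026628.13, chr1:191170296-191218039, mm10, minus strand), a factor of the ATF family induced by cell stress and injury, had 0.771, 0.837 and 0.866 CPM in knockout and 0.067, 0.19 and 0.175 CPM in wild type. In deposited counts these were 53, 53 and 48 against 4, 11 and 10. The knockout libraries agreed closely and lay far above the wild-type ones (log2 fold change 2.51, SE 0.56, adjusted p = 0.0255). The minimum of the low count filter was reached in 3 knockout and 2 wild-type libraries, so the wild-type libraries alone would not have passed it. The call was lost without any single library but wild-type 3 (adjusted p at most 0.0966). It was also lost with the replicate number as a block (adjusted p = 0.066).

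The remaining AP-1 genes did not pass. Jun, a subunit of AP-1, was at 81.8, 85.6 and 78.1 CPM in knockout and 61.9, 69.3 and 70.8 CPM in wild type. These groups did not overlap, but the difference missed the threshold (log2 fold change 0.28, SE 0.08, adjusted p = 0.0669; DESeq2 adjusted p = 0.0367). Jund, a JUN paralog found in most cells and the most abundant member per length, was at 234, 237 and 220 CPM in knockout and 240, 280 and 245 CPM in wild type (-0.15, SE 0.08, adjusted p = 0.296). It shares 877 exon bases with the antisense gene Gm11175, as Jun shares 232 with Junos and Junb 173 with Prdx2.

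Fos, the prototype immediate early gene, was barely detected. It had 16, 45 and 46 deposited counts in knockout and 42, 23 and 28 in wild type, or 0.591 ± 0.316 CPM in knockout and 0.53 ± 0.158 CPM in wild type (SD, n = 3 each; log2 fold change 0.15, SE 0.56, adjusted p = 0.913). Fosl2, a FOS relative that lacks a strong activation domain, was far more abundant, per length too, at 78.9, 77.7 and 91.2 CPM in knockout and 101, 86.5 and 59.3 CPM in wild type (0.01, SE 0.19, adjusted p = 0.99). Its wild-type libraries spread over a wider range than its knockout libraries. Junb averaged 6.36 ± 0.675 CPM in knockout and 6.39 ± 0.433 CPM in wild type (-0.01, SE 0.15), and Maff, a small MAF protein, 5.46 ± 0.981 CPM in knockout and 4.78 ± 1.03 CPM in wild type (0.19, SE 0.21). For these 4 genes the groups overlapped.

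In the EGR and NR4A group, Egr1 rose (1 of 3 tested, a single call beside the background of 5.21%). Egr1 (ENSMUSG00000038418.7, chr18:34859823-34864984, mm10, plus strand), which SRF and ELK factors switch on downstream of ERK, had 5.85, 7.82 and 6.44 CPM in knockout and 4.29, 4.36 and 4.29 CPM in wild type, a 1.55-fold difference (log2 fold change 0.64, SE 0.17, adjusted p = 0.0493). The wild-type values were nearly equal and the knockout values all higher. This call was the weakest of the 4: it was lost when any single library was left out (adjusted p = 0.0687 to 0.188), with RLE scaling (0.0506), without the low count filter (0.0504) and in the fit that was not robust (0.0518). With the replicate number as a block it was lost too (adjusted p = 0.101). Egr2, known for its part in hindbrain patterning and myelination, had 0, 3 and 8 deposited counts in knockout and 15, 15 and 0 in wild type and was not tested.

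Nr4a1 and Nr4a3 encode orphan nuclear receptors induced by activity and by hormones. Nr4a1 was at 10.3, 11.2 and 9.56 CPM in knockout and 8.78, 11.5 and 7.63 CPM in wild type (log2 fold change 0.15, SE 0.17, adjusted p = 0.667). Nr4a3 was at 57.3, 44.1 and 55.3 CPM in knockout and 68.4, 59.5 and 55.2 CPM in wild type (-0.22, SE 0.12, adjusted p = 0.313). The groups overlapped for both.

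The 9 other early response genes held the highest median of the 5 groups, at a log2 fold change of 0.66, and 8 of the 9 values were positive, but 1 gene passed (11.1%, against 5.21% of all genes). Ier3 (ENSMUSG00000003541.6, chr17:35821684-35822923, mm10, plus strand), a regulator of cell survival induced by cytokines and growth factors, had 3.29, 4.85 and 3.55 CPM in knockout and 1.19, 2.27 and 1.82 CPM in wild type. The groups were apart and the level was 2.21-fold higher (log2 fold change 1.15, SE 0.28, adjusted p = 0.0389). Leaving out any single library but wild-type 2 ended the call (adjusted p = 0.0607 without wild-type library 3 to 0.15 without knockout library 2). The fit that was not robust ended it too (adjusted p = 0.0522).

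Klf4, Klf2, Ccn1 and Gadd45b had a large positive value without passing. Klf4, a Krüppel-like factor of endothelial and stem cells, had 7.58, 6.94 and 3.48 CPM in knockout and 3.10, 2.64 and 1.38 CPM in wild type (log2 fold change 1.34, SE 0.37, adjusted p = 0.0709), and it passed without knockout library 3 (1.62, adjusted p = 0.0388). Klf2, its flow-induced relative in endothelium, had 10.3, 10.6 and 11.005 CPM in knockout and 7.14, 8.72 and 4.38 CPM in wild type (0.66, SE 0.22, adjusted p = 0.117). In both Klf genes every knockout library was above every wild-type library. Ccn1, a secreted matrix-associated protein induced by SRF and YAP, had 13.7, 16.9 and 12.1 CPM in knockout and 6.97, 9.27 and 10.8 CPM in wild type (0.66, SE 0.19, adjusted p = 0.0669). Gadd45b, a stress-induced gene, had 3.70, 2.04 and 3.88 CPM in knockout and 1.19, 1.22 and 2.09 CPM in wild type (1.09, SE 0.33, adjusted p = 0.0815), with knockout library 2 inside the wild-type range. DESeq2 called all 4, as it did Jun, with adjusted p of 0.00344 for Klf4, 0.0141 for Ccn1, 0.0287 for Gadd45b and 0.0481 for Klf2.

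The more abundant members of the group differed little. Ier5, a serum-induced gene, averaged 170 ± 12.2 CPM in knockout and 165 ± 12.5 CPM in wild type (log2 fold change 0.04, SE 0.08), and Btg1, an antiproliferative gene, 105 ± 5.58 CPM in knockout and 102 ± 5.41 CPM in wild type (0.03, SE 0.07). Ier2 was at 16.2, 20.7 and 17.5 CPM in knockout and 15.2, 15.9 and 16.2 CPM in wild type (0.20, SE 0.12, adjusted p = 0.378), and Klf6 at 55.4, 52.9 and 56.1 CPM in knockout and 61.1, 58.6 and 64.2 CPM in wild type (-0.16, SE 0.07, adjusted p = 0.244). Neither passed, although the groups of Ier2 and of Klf6 did not overlap, with knockout above for Ier2 and below for Klf6.

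**Figure D3:**
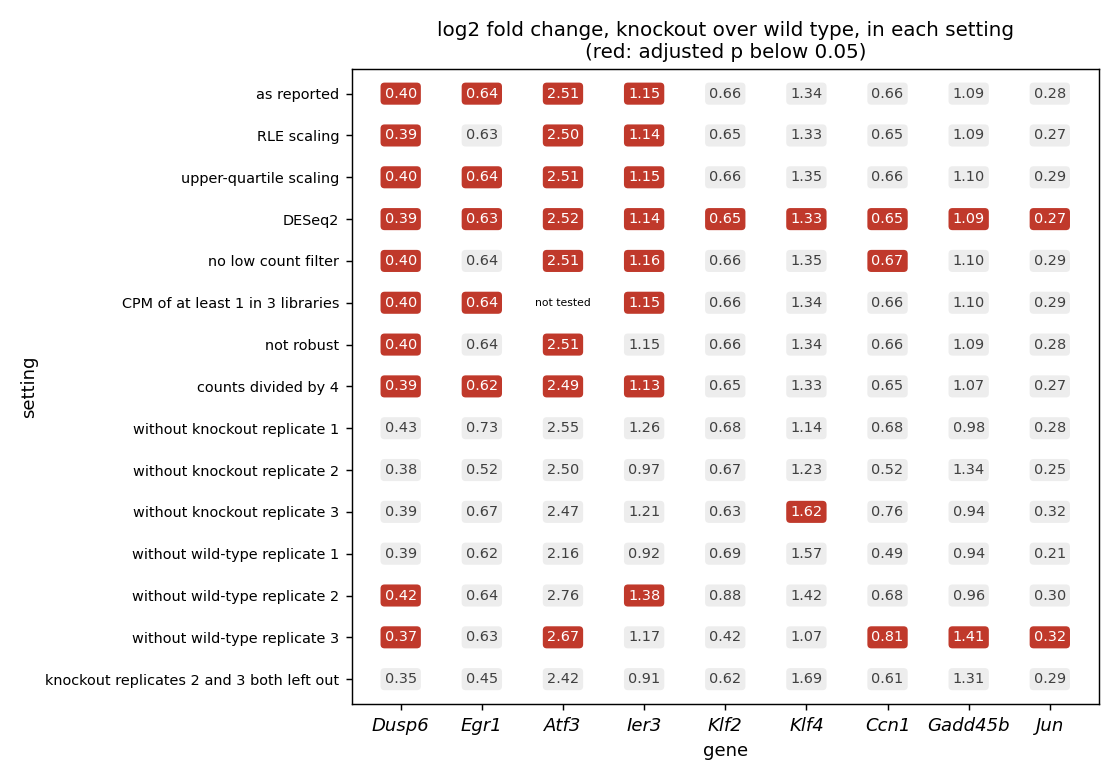
Log2 fold change (knockout over wild type) of the 9 genes that edgeR or DESeq2 called, for the reported fit and the alternative settings (rows). The fit with the replicate number as a block is not drawn. Red cells are past an adjusted p of 0.05: DESeq2 calls all 9, the reported fit 4, and leaving out a library between 0 and 5, while all values in the grid are positive.

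Markers of other cell types also differed between knockout and wild type. Of 12 endothelial markers 7 rose, and their summed level was 365 to 472 CPM in knockout and 205 to 248 CPM in wild type. Meningeal and mural markers had 13 of 14 higher, with sums of 680 to 854 CPM in knockout and 111 to 122 CPM in wild type, and microglia and macrophage markers 9 of 12 higher, with sums of 116 to 146 CPM in knockout and 36.6 to 43.4 CPM in wild type. None of these markers was at 0 in a group. Such cells are known to express several of the members described, Klf2, Klf4, Ccn1, Atf3, Ier3 and Egr1 among them, and the part of these markers in the values of those genes was not tested. In bulk tissue, more cells of a type and more RNA per cell cannot be told apart.

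Per length, the members covered a wide range, and the genes of neuronal activity lay in its lower part together with Dusp5, Fos, Atf3 and Egr2. In CPM per kilobase of exon, the mean level of Jund was 138 in knockout and 153 in wild type, followed by Ier5 (51.7 in knockout, 50.3 in wild type) and Dusp4 (51.2 in knockout, 48.8 in wild type), which could not be ordered against each other within their spread. Jun was next, at 25.7 in knockout and 21.1 in wild type. Dusp6 was at 14.4 in knockout and 10.9 in wild type, above Spry2 (10.6) in knockout and below it (13.1) in wild type. Egr1 was at 1.495 in knockout and 0.962 in wild type. Arc was at 0.49 in knockout and 0.60 in wild type, and Egr3 at 0.341 in knockout and 0.60 in wild type. Npas4 was at 0.273 in knockout and 0.301 in wild type, and Fos at 0.251 in knockout and 0.225 in wild type. Some neighbours in this order, such as Npas4 and Fos, overlapped in their libraries. Fosb, at 0.0352 in knockout and 0.0337 in wild type, and Egr4, at 0 in knockout and 0.0614 in wild type, were lower still. Egr2 was as low, at 0.0188 in knockout and 0.05 in wild type, Dusp5 was at 0.248 in knockout and 0.386 in wild type, and Atf3 was at 0.383 in knockout and 0.0667 in wild type.

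**Figure D4:**
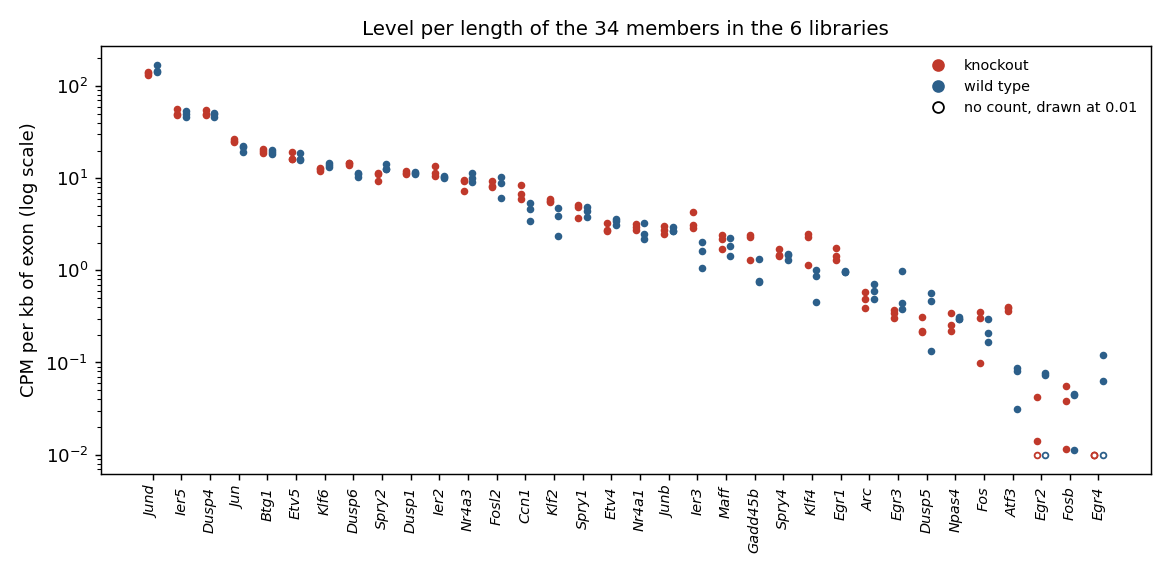
Level of the 34 members in CPM per kilobase of exon (vertical axis, log scale), each point a library, with knockout in red left of wild type in blue and genes ordered by mean level. Jund leads at 138 in knockout and 153 in wild type, and Arc, Egr3, Dusp5, Npas4, Fos, Atf3, Egr2, Fosb and Egr4 are the lowest by mean level; open points are libraries with no count, drawn at 0.01.

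Other genes of the same pathways, from lists chosen with earlier results of these data known, were mostly not past the threshold. Over all genes tested, 5.21% were called higher and 2.53% lower. Among 39 tested genes of the ERK cascade and its receptors, 7 rose (17.9%) and 3 fell (median log2 fold change 0.08). The largest change among those called was in the receptor gene Met, which fell to 18.5 ± 1.15 CPM in knockout, against 39.3 ± 8.34 CPM in wild type (-1.09, SE 0.15, adjusted p = 0.00293). The adaptor gene Shc1 rose to 26.2 ± 2.90 CPM in knockout, against 12.96 ± 0.973 CPM in wild type (1.02, SE 0.12), and the PDGF receptor genes Pdgfrb (0.93, SE 0.11) and Pdgfra (0.76, SE 0.11) rose too. Pdgfrb is also a marker of mural cells, and Pdgfra one of oligodendrocyte precursors and meningeal fibroblasts. Of 19 tested genes that brake the cascade, such as Spred and neurofibromin genes, 0 passed by edgeR (3 at an unadjusted p under 0.05, 1 by DESeq2), and of 10 FGF ligand genes 0 passed (3 and 1).

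Of 11 further genes of ERK-linked ETS factors and their targets, 2 rose and 0 fell, namely Elk3, an ETS factor known from endothelium (0.71, SE 0.14, adjusted p = 0.0156), and the cyclin gene Ccnd1 (0.46, SE 0.09, adjusted p = 0.0149). At an unadjusted p under 0.05, 6 of the 11 were higher and 1 lower, and DESeq2 called 3 higher and 1 lower. Of 29 other immediate early genes, 1 rose and 2 fell (median -0.02): Btg2, an antiproliferative gene of neurogenic progenitors, was at 37.7 ± 2.66 CPM in knockout and 24.7 ± 2.85 CPM in wild type (0.61, SE 0.11), Myc, a growth regulator, at 14.8 ± 0.723 CPM in knockout and 23.3 ± 0.25 CPM in wild type (-0.66, SE 0.10, adjusted p = 0.00486), and the kinase gene Plk2 at 158 ± 4.57 CPM in knockout and 191 ± 1.67 CPM in wild type (-0.27, SE 0.06). At an unadjusted p under 0.05, 3 of the 29 were higher and 6 lower, and DESeq2 called 2 higher and 3 lower. Among 20 genes of the later response to neuronal activity, 16 values were below 0, with a median of -0.29. In 6 of the 20 (30%) all knockout libraries lay below all wild-type libraries, against 13.5% of all genes. By edgeR 1 rose and 2 fell (1 and 6 at an unadjusted p under 0.05, 1 and 4 by DESeq2). The 2 that fell by edgeR were Vgf, a secreted neuropeptide precursor, at 5.60 ± 0.721 CPM in knockout and 12.6 ± 3.98 CPM in wild type (-1.17, SE 0.22, adjusted p = 0.0141), and Syt4 (-0.58, SE 0.06), a synaptotagmin, while the chromatin remodelling gene Baz1a rose (0.88, SE 0.12). Regulators of immediate early genes, such as SRF, CREB and MEF2 genes, had 1 of 21 higher, the calcineurin-dependent factor gene Nfatc4 (0.80, SE 0.09, adjusted p = 0.00112), and 0 lower (3 at an unadjusted p under 0.05, 2 by DESeq2).

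Neural cell types differed as well. Markers of dividing cells had 8 of 10 higher (666 to 684 CPM in knockout, 395 to 490 CPM in wild type) and those of intermediate progenitors 4 of 8 higher (796 to 874 CPM in knockout and 534 to 686 CPM in wild type), while radial glia, which express Dusp6, Spry2 and Etv5, had 2 of 11 higher (1851 to 2071 CPM in knockout and 1946 to 1965 CPM in wild type). Oligodendrocyte precursor markers had 1 of 8 higher and 3 lower (87.2 to 105 CPM in knockout and 99.5 to 132 CPM in wild type), interneuron markers 2 of 9 lower (321 to 395 CPM in knockout and 398 to 492 CPM in wild type), and projection neuron markers 1 of 10 lower. Choroid plexus markers had 2 of 6 tested higher and the widest spread in knockout, at 33.3 to 516 CPM, against 6.53 to 7.89 CPM in wild type, where Folr1 was at 0. Ttr alone ran from 1.91 to 452 CPM in knockout and did not pass (adjusted p = 0.148). Erythroid markers had 0 of 8 past the threshold by edgeR (1 at an unadjusted p under 0.05, 0 by DESeq2), with sums of 1886 to 2203 CPM in knockout and 1520 to 2106 CPM in wild type. The part of these shifts in the values of Dusp6, Spry2 and the activity genes was not tested.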

How the data were processed

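RNA sequencing of cortex gave 6 libraries, 3 knockout and 3 wild type, grouped by the genotype in the labels. The authors deposited raw gene counts, treated here as estimated counts because low values crowd at multiples of 4. They were already whole and needed no rounding. HISAT2 2.0.5, StringTie 1.3.4, Trim Galore 0.4.4 and FastQC 0.11.9 appear, with no role or order, in the submitters' processing notes, as does the build mm10. The counting program, its annotation and its strand setting were not found in these notes or the labels.

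Names and coordinates come from GENCODE M21 (55141 of 55401 rows matched), and older symbols from RefSeq synonyms. Genes kept by filterByExpr (19844) were scaled by TMM and compared in edgeR 4.0.16 (robust quasi-likelihood test) in R 4.3.3, with Benjamini-Hochberg adjustment over all genes tested and a threshold of 0.05. Every adjusted p is from this test unless DESeq2 1.42.0 is named. Fold changes are log2, knockout over wild type, and their SE is the absolute value divided by the square root of F. CPM values are mean ± SD over 3 libraries. Per-length levels divide CPM by the union of annotated exons. The fit was also run on simulated counts with the same spread for every gene and changes only in genes of high count. That run does not cover changes in scarce genes such as Atf3, or counts that step by 4.

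Counting error alone is covered by the floor of 3 fragments. The members and lists were chosen with earlier results of these data known. All members could be named, and from each pathway list up to 4 genes past the threshold by size of fold change. Marker lists were summarised, with the most abundant gene or one at 0 named. No score over the members was tested. The alternatives were 2 other scalings, DESeq2, 2 other filters on low counts, a fit that was not robust, counts divided by 4, the replicate number as a block and each library left out. Leaving out knockout libraries 2 and 3 together was chosen after seeing the data.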

Additional observations from a re-analysis of the deposited data

How the results depend on the processing

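The 4 members higher in knockout became 9 with DESeq2, 2 in the fit that was not robust (Atf3 and Dusp6), 2 with the replicate number as a block (Ier3 and Klf4), and 0 to 5 with each library left out in turn. With knockout libraries 2 and 3 both left out the count was 0, but that fit holds 1 knockout library and takes its spread from the wild-type libraries alone, so it says nothing about the calls. The log2 fold changes of the 4 called genes there were 0.35 to 2.42. The count was 3 or 4 with RLE scaling, upper-quartile scaling, no low count filter, the stricter filter (where Atf3 was not tested) and counts divided by 4. In every one of these settings 0 members were lower. Deviations of same-numbered libraries correlated at 0.0283, -0.0026 and 0.0016, and not every library correlated best with its own number. With 3 libraries per group these correlations cannot decide whether the replicate numbers mark pairs. The labels do not state it either. The median of the ERK feedback genes lay between 0.011 and 0.053 with a library left out and at -0.0046 with knockout libraries 2 and 3 both left out, and that of the neuronal activity genes at -0.39 to -0.14 and at -0.59. Signs turned only in members that were not called. Junb was at 0.00015 without the low count filter and Fosl2 at -0.0029 with counts divided by 4. With knockout libraries 2 and 3 both left out, Spry1 was at -0.22, Fos at -1.17, Dusp1 at -0.0046, Fosl2 at -0.049, Ier5 at -0.033, Maff at -0.12, Btg1 at -0.033 and Npas4 at 0.20. With a single library left out, Fosb ran from -0.43 to 0.48, Etv5 from -0.070 to 0.11, Junb from -0.085 to 0.068, Spry1 from -0.026 to 0.19, Ier5 from -0.019 to 0.10, Fos from -0.17 to 0.54, Fosl2 from -0.18 to 0.17 and Btg1 from -0.020 to 0.068. The cause of these shifts was not tested. Depth limits Fos, Fosb, Egr2, Egr4, Dusp5 and Atf3 most, each with at most 168 deposited counts in a group, where a fragment adds about 4.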

Other observations

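Egr3 and Klf4 each had a library that stood apart from its group. Egr3 was at 4.32 CPM in wild-type library 1, against 1.95 and 1.66 CPM in the other wild-type libraries, while Arc and Npas4 there were at 1.83 and 1.22 CPM. Klf4 was at 3.48 CPM in knockout library 3, against 7.58 and 6.94 CPM in the other knockout libraries, whereas Klf2 was at 11.005 CPM in that library, the highest of the group. The antisense transcript Gm11175, which overlaps Jund, averaged 0.575 ± 0.402 CPM in knockout and 2.62 ± 1.58 CPM in wild type (SD, n = 3 each; edgeR log2 fold change -2.19, SE 0.73, adjusted p = 0.138).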
